A study of Oryza sativa with 30 samples.

Results

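Vegetative shoot apices of 2 temperate japonica rice cultivars, Taichung 65 (T65) and Nipponbare (NB), were compared in long days, before any short day had been given. The comparison used the 6 RNA-seq libraries that the labels place at day 0, of 23 libraries in the series: 3 of T65 and 3 of NB. Plants of both cultivars were 6 weeks old and grew in chambers with 16 h of light at 28 °C and 8 h of dark at 24 °C, and apices were cut under a microscope. The other 17 libraries hold apices of the same cultivars after 4, 8 or 12 days of 10 h light and 14 h dark, and served to ask whether a day 0 difference was also measured in other libraries. The labels number the libraries of a group without tying them to separate plants, so the p-values rest on the spread between libraries, part of which may be technical.

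Rice is a short-day plant. In long days the apical meristem makes leaves, and in the leaf Hd1 and Ghd7 repress the activator Ehd1, so that the florigen gene Hd3a stays low. Florigen made in leaves reaches the apex in short days, binds 14-3-3 proteins and the bZIP factor OsFD1, and activates MADS-box genes of inflorescence identity. Cultivars of rice are known to differ in heading date through alleles of these regulators, and T65 is known as a line with a non-functional Ehd1.

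The libraries labelled T65 held 14.4 to 23.8 M counts in genes, where M is 1e+06, and those labelled NB held 20.9 to 22.7 M. The OSH1 homeobox gene, a marker of meristem cells, averaged 160.9 ± 21.5 CPM in T65 apices and 152.5 ± 20.7 CPM in NB apices (SD, n = 3 each), where CPM is counts per 1 M of the library's total after TMM scaling. Reads aligned to several places are given relative to the counts in genes. They came to 9.79, 6.56 and 5.76% in T65 replicates 1, 2 and 3, against 9.70 to 10.6% in NB. T65 replicates 2 and 3 thus belong to a set of 7 libraries of the series with a low share (5.76 to 6.71%), apart from the other 16 (9.59 to 10.9%), and no NB library of day 0 does. Counts of genes that differed and values of several listed genes are therefore also given with this set as a term in the model. Some are also given with higher-share libraries only, where T65 keeps 1 library that is assumed to vary like the other groups. Results by chromosome and run, and those of the largest differences, are given without either. Files list loci of an annotation made on Nipponbare, so a gene that only T65 carries has no row.

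Of 22839 genes tested, 1492 (6.53%) differed between T65 and NB apices at an adjusted p under 0.05: 633 (2.77%) were higher in T65 and 859 (3.76%) were lower. Differences of at least 2-fold were found in 721 genes (3.16%), of which 195 (0.854%) were higher and 526 (2.3%) lower in T65. At 4-fold or more the split was 94 higher against 332 lower. The loci are of an annotation made on Nipponbare, and T65 reads that differ from that sequence may align less often. The part of alignment in these splits was not tested. The median size over the 1492 genes was 0.97 on the log2 scale, 465 of them differed by less than 1.5-fold, and the median over all tested genes was -0.014. The 3 T65 values lay wholly above or below the 3 NB values in 1482 of the 1492, and in 34.1% of all tested genes. The count fell to 896 with the share set as a term (856 of them among the 1492) and to 409 in higher-share libraries alone (396 of them among the 1492), with 536 and 260 lower. With the share set as a term, 572 genes were called with a difference of at least 2-fold. These were counted anew in that fit, and their overlap with the 721 was not counted. Without T65 replicate 2 or 3 the count of all genes called was 870 or 983, and without NB replicate 1 or 3 it was 963 or 861.

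The 23 gene lists, of 195 genes in all, cover flowering, apex development, hormones, the clock, defence, other tissues and sample handling. Of these genes, 154 had enough counts to test, and 11 of these (7.14%) differed, close to the 6.53% of all tested genes. They were Hd6, Hd1, PHYA, PRR73, PRR59, OsMADS2, OsSPL12, OsYAB3, OsYAB4, SLR1 and HSP101, of which 5 were higher and 6 lower in T65. A difference of at least 2-fold was found in 3: Hd6, Hd1 and HSP101.

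**Figure D1:**
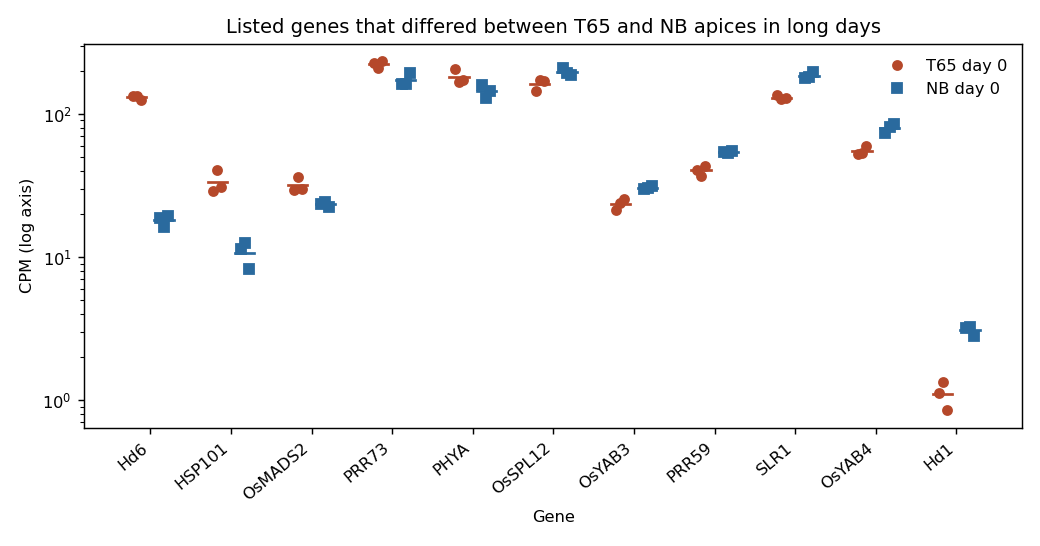
CPM on a log axis of the 11 listed genes that differed, in each of 3 T65 libraries (circles) and 3 NB libraries (squares) of day 0, with the group means as bars. Hd6 stands furthest apart, at 125.1 to 133.3 CPM in T65 and 16.2 to 19.4 CPM in NB.

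Among the heading date genes, Hd6, which encodes the alpha subunit of casein kinase 2 and delays flowering in long days, had 133.3, 132.7 and 125.1 CPM in T65 libraries, against 18.8, 16.2 and 19.4 CPM in NB libraries. The groups were far apart: Hd6 was higher in T65 by 2.84 ± 0.14 on the log2 scale (SE, adjusted p = 2.69e-12). Nipponbare is known to carry an Hd6 allele with an early stop codon. No sequence was examined here, and the part of that allele in the RNA difference was not tested. The pairing of the symbol Hd6 with its locus was recalled and could not be checked. Hd6 was called in T65 against NB in each of the alternative fits, with a log2 difference between 2.77 and 2.9.

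Hd1, the CONSTANS-like regulator that represses flowering in long days and promotes it in short days, had 1.13, 1.34 and 0.852 CPM in T65, against 3.19, 3.26 and 2.82 CPM in NB. Each T65 library was below each NB library, with a log2 difference of -1.49 ± 0.30 (SE, adjusted p = 0.00344). With the share set as a term the difference was -1.43 (adjusted p = 0.0151), and in higher-share libraries alone it was -1.44 and did not pass (adjusted p = 0.211).

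PHYA, the far-red light receptor, averaged 180.9 ± 20.8 CPM in T65 and 144.3 ± 14.8 CPM in NB (SD, n = 3 each; log2 difference 0.33 ± 0.10, adjusted p = 0.049). Its call was lost on leaving out any of 4 of the 6 libraries (T65 replicate 1 or 3, NB replicate 2 or 3), with the share set as a term (adjusted p = 0.128) and on unscaled totals. PHYB and PHYC, the other phytochromes, did not pass, with log2 differences of 0.08 ± 0.08 and 0.06 ± 0.09. Hd16, the casein kinase I that acts on Ghd7, had 102.9 ± 3.61 CPM in T65 and 108.1 ± 5.85 CPM in NB and did not pass (adjusted p = 0.665). Ehd1, Ghd7 and Hd3a had 0 counts in every T65 and NB library of day 0, where 3 counts over the summed scaled totals of a group are worth 0.0527 CPM in T65 and 0.0438 CPM in NB. DTH8 had 1 count in T65 and 0 in NB.

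Circadian clock genes showed one gene in each direction among 12 tested. PRR73, a pseudo-response regulator of the clock, had 225.4, 207.6 and 232.3 CPM in T65 and 161.4, 160.3 and 193.7 CPM in NB (log2 difference 0.37 ± 0.08, adjusted p = 0.00649). PRR59, another of the family, had 40.4, 37 and 43.2 CPM in T65 and 54.4, 53.1 and 55.4 CPM in NB (log2 difference -0.43 ± 0.08, adjusted p = 0.00222). The groups did not overlap for either gene. Both calls held on leaving out any 1 of the 6 libraries and with the share set as a term, and were lost in higher-share libraries alone, where PRR73 stood at 0.41 ± 0.13 (adjusted p = 0.199) and PRR59 at -0.41 ± 0.13 (adjusted p = 0.194). PRR37, a close relative of PRR73 that also sets heading date, missed the threshold by edgeR at 0.38 ± 0.12 (adjusted p = 0.0607) and was called by DESeq2. GI missed at 0.35 ± 0.12 (adjusted p = 0.099). Of the 12 clock genes, 6 had an unadjusted p under 0.05, as did 5072 of all 22839 tested genes. LHY, the morning clock gene, had a log2 difference of -0.31 ± 0.12 (adjusted p = 0.111). No source used here gives the hour at which apices were cut, so a cultivar difference in the clock and a difference in sampling hour cannot be told apart.

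The genes of the floral transition at the apex missed the threshold, and some were close to 0 in both cultivars. PINE1, the zinc finger repressor of internode elongation, had 114.8, 110.5 and 138 CPM in T65 and 162.6, 110.7 and 138 CPM in NB, with overlapping groups (log2 difference -0.18 ± 0.23, adjusted p = 0.693, 95% interval -0.66 to 0.3). OsMADS18 had 30.9 ± 6.78 CPM in T65 and 29.7 ± 5.93 CPM in NB (SD, n = 3 each; log2 difference 0.06 ± 0.18). OsMADS14 had 0.263 ± 0.136 CPM in T65 and 0.484 ± 0.0631 CPM in NB and did not pass (adjusted p = 0.501). OsMADS15 and OsMADS34 stayed under 0.14 CPM in each library of both cultivars. OsFD1, the bZIP partner of florigen, had 174.9 ± 11.2 CPM in T65 and 151.8 ± 20.9 CPM in NB (log2 difference 0.20 ± 0.19, adjusted p = 0.557), and the 14-3-3 gene GF14c had 699.5 ± 26.9 CPM in T65 and 777 ± 27.2 CPM in NB (adjusted p = 0.326). None of 7 tested genes of the florigen family and partners, 4 of inflorescence identity and 5 of the SVP and SOC1 MADS-box list passed. OsMADS55, an SVP-like gene, came nearest with 109.6 ± 5.03 CPM in T65 and 149.5 ± 7.49 CPM in NB (SD, n = 3 each; log2 difference -0.45 ± 0.14, adjusted p = 0.0672).

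Of 4 tested floral organ identity genes, OsMADS2, a B-class MADS-box gene of the PISTILLATA lineage, passed at 0.45 ± 0.12 (adjusted p = 0.0297), with 31.9 ± 3.84 CPM in T65 and 23.4 ± 0.79 CPM in NB (SD, n = 3 each). The groups did not overlap. OsMADS2 lost its call without T65 replicate 2 or any 1 NB library, and with the share set as a term (adjusted p = 0.0998). OsMADS16, the APETALA3-like partner, had 31.1 ± 9.24 CPM in T65 and 26.5 ± 2.64 CPM in NB (adjusted p = 0.632). The other 7 genes of the list had at most 13 counts in all and were not tested.

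Of 6 tested YABBY genes, which encode transcription factors of lateral organs such as leaves, 2 were lower in T65. OsYAB4 had 52.8, 52.9 and 59.7 CPM in T65, against 73.3, 80.4 and 84.9 CPM in NB (log2 difference -0.53 ± 0.09, adjusted p = 0.000506). OsYAB3 had 23.4 ± 2.04 CPM in T65 and 30.3 ± 0.752 CPM in NB (SD, n = 3 each; log2 difference -0.37 ± 0.11, adjusted p = 0.0419). The OsYAB4 call held on leaving out any 1 of the 6 libraries and with the share set as a term (adjusted p = 0.00301), and missed in higher-share libraries alone at -0.58 ± 0.15 (adjusted p = 0.0785). The OsYAB3 call was lost in 5 of the 6, all but the fit without T65 replicate 3, and with the share set as a term.

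SLR1, the DELLA repressor of gibberellin responses, was lower in T65 with 134.9, 126.2 and 128.5 CPM, against 176.5, 180.9 and 197.3 CPM in NB (log2 difference -0.51 ± 0.14, adjusted p = 0.0275). Every T65 value lay below every NB value, but the call was lost on leaving out any 1 of the 6 libraries and with the share set as a term (log2 difference -0.33, adjusted p = 0.155). SLR1 was the one gene of 13 tested gibberellin genes to pass. SD1, the gibberellin 20-oxidase of the semi-dwarf rices, had 11.4 ± 3.44 CPM in T65 and 12.4 ± 0.746 CPM in NB (adjusted p = 0.787), and the receptor gene GID1 averaged 189.8 CPM in T65 and 158 CPM in NB (log2 difference 0.26 ± 0.17, adjusted p = 0.38). OsSPL12, of 18 tested genes of the SPL family, passed at -0.28 ± 0.08 (adjusted p = 0.0486). The OsSPL12 call was lost on leaving out any 1 of the 6 libraries and with the share set as a term (adjusted p = 0.0804). OsSPL14, the ideal plant architecture gene, had 331.9 ± 21.2 CPM in T65 and 302.3 ± 44.4 CPM in NB (adjusted p = 0.708).

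No gene passed among 7 KNOX and BELL homeobox genes, 3 meristem size genes, 12 panicle and axillary branching genes, 10 cytokinin genes, 6 auxin genes, 9 cell division genes and 4 Polycomb and VIL genes. The list medians lay between -0.11 (panicle and axillary branching) and 0.13 (auxin) on the log2 scale, beside -0.014 over all tested genes. MOC1, the GRAS gene needed for tillering, had 1.3 ± 0.299 CPM in T65 and 2.43 ± 0.301 CPM in NB and missed the threshold (log2 difference -0.87 ± 0.29, adjusted p = 0.077). PIN1d, an auxin efflux carrier gene, had 40.6, 73.3 and 62 CPM in T65 and 39.4, 38.8 and 36.2 CPM in NB (log2 difference 0.62 ± 0.19, adjusted p = 0.0508). Over the 15 lists with tested genes and no call by edgeR, 12 of 87 genes had an unadjusted p under 0.05. DESeq2 called 3 of the 87 (OsMADS55, PIN1d and VIL2, a VIN3-like gene). Over all 22839 tested genes, 5072 had an unadjusted p under 0.05 and DESeq2 called 2031. The value of PIN1d is uncertain because reads shared with its near-copy PIN1c are not counted. Its 73.3 and 62 CPM were of T65 replicates 2 and 3, in the set with a low share of multiply aligned reads. T65 replicate 1, of the higher share, had 40.6 CPM.

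Genes of other tissues and of stress gave 1 call. None of 6 leaf photosynthesis genes passed, and their summed level was 36.6 to 62.1 CPM in T65 and 40 to 42.4 CPM in NB. None of 3 secondary wall and vascular genes passed, with sums of 45.7 to 52.5 CPM in T65 and 42.7 to 53.9 CPM in NB. All 11 diterpenoid phytoalexin genes were too low to test, and 6 had 0 counts in both cultivars. Of 7 tested domestication and grain genes and 3 tested defence genes none passed. HSP101, the heat-induced chaperone, was higher in T65 with 28.9, 40.7 and 30.7 CPM, against 11.3, 12.6 and 8.29 CPM in NB (log2 difference 1.63 ± 0.29, adjusted p = 0.000888). It held on leaving out any 1 of the 6 libraries and with the share set as a term, and missed in higher-share libraries alone (1.44 ± 0.40, adjusted p = 0.105). Of 9 further heat shock genes, listed after this value was seen, 7 were tested and 0 passed at an adjusted p under 0.05 by edgeR or DESeq2, with 1 at an unadjusted p under 0.05. That was HSP17.9A, with 44.6 ± 11.3 CPM in T65 and 24.6 ± 6.66 CPM in NB (adjusted p = 0.13). The part of sample handling in the HSP101 difference was not tested.

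**Figure D2:**
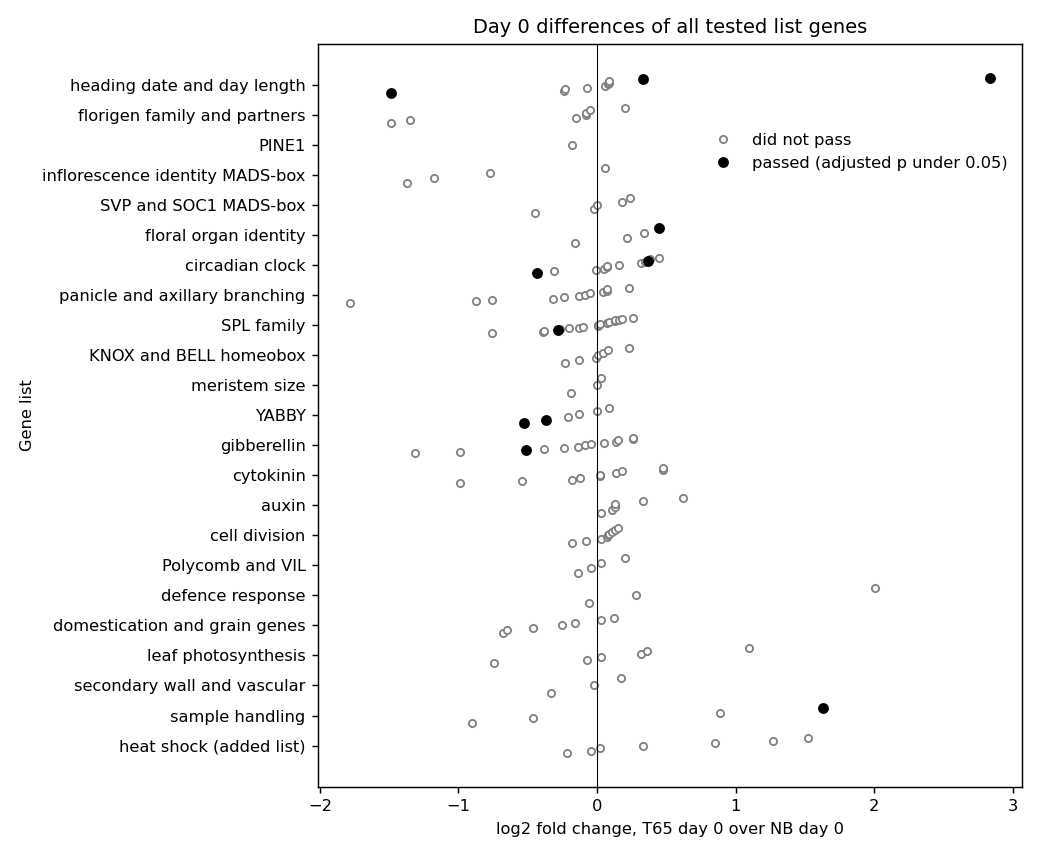
Log2 fold changes of T65 over NB at day 0 for every tested gene of the lists, with genes that passed filled and the others open. The phytoalexin list has no point because none of its genes was tested, and the open points furthest from 0 belong to genes of low counts such as PR10a.

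The day 0 differences were measured again in the libraries of the later days, which are separate from those of day 0. All days shared the same model, which estimates a gene's spread over all groups, so calls of different days are not independent. Libraries of the low-share set also occur in T65 at days 4 and 8 and in NB at days 8 and 12. Of the 1492 genes, 833 (55.8%) were called in the same direction at day 4, 641 (43%) at day 8 and 985 (66%) at day 12, while 15.4%, 4.19% and 30.7% of all tested genes were called on those days. The opposite direction was called in 36 genes at day 4, 0 at day 8 and 18 at day 12. All 4 days called the same direction in 491 genes (32.9%), 154 higher and 337 lower in T65, and at least 1 later day did in 1250 (83.8%). Among differences of 2-fold or more at day 0, 408 of 721 (56.6%) were called on all 4 days. Across the 22839 genes, which are not independent of each other, the day 0 log2 differences correlated with those of day 4, 8 and 12 at Pearson's r of 0.87, 0.88 and 0.77. These coefficients include genes with 0 or nearly 0 counts in 1 cultivar, with fitted day 0 differences such as 14.5 and -13.67. No r was computed without such genes. Over the 1492 genes the median ratio of the later difference to that of day 0 was 0.76, 0.71 and 0.93 on those days. The genes were selected on their day 0 values. The split at 4-fold or more lay the same way each day, with 113 higher and 422 lower at day 4, 96 and 301 at day 8, and 221 and 489 at day 12. Counts of the later days rest on the same annotation, and the part of alignment was not tested there either.

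**Figure D3:**
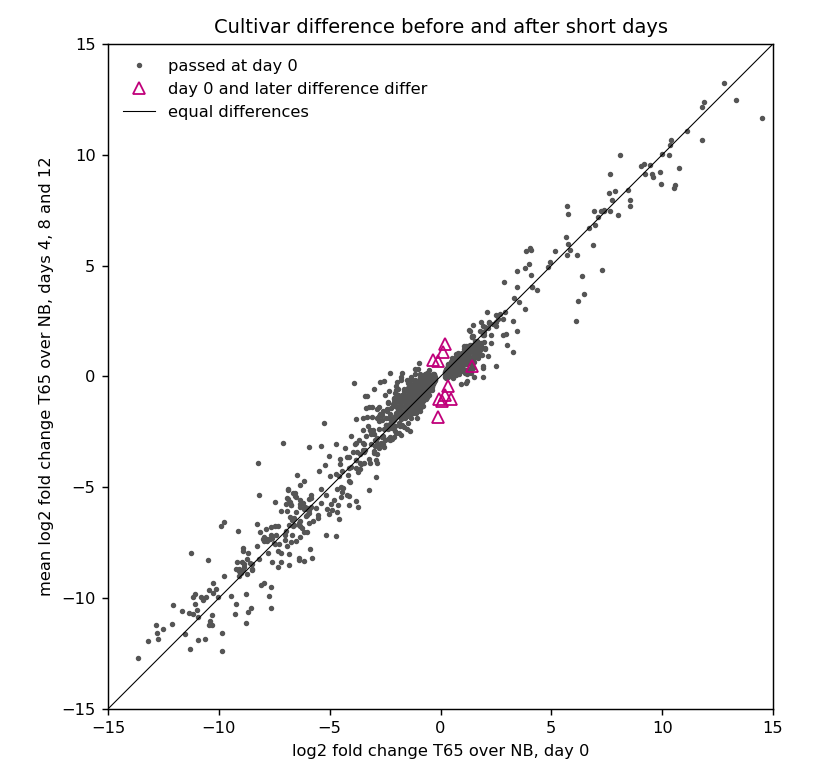
Log2 fold change of T65 over NB at day 0 (x axis) against its mean at days 4, 8 and 12 (y axis), for the 1492 genes called at day 0 (dots) and the 11 genes whose day 0 difference differed from the later mean (triangles). The dots follow the line of equal differences with scatter, and the median ratio of a later difference to that of day 0 was 0.76 at day 4, 0.71 at day 8 and 0.93 at day 12. Values beyond about 10 belong to genes with 0 or nearly 0 counts in 1 cultivar, whose fitted size depends on the fit.

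A direct test of the day 0 difference against the mean of the 3 later ones called 11 genes (0.0482%), 7 of them with a more positive T65 over NB difference at day 0 than later and 4 with a more negative one. Without a filter on low counts the count was 348, by DESeq2 60, and in higher-share libraries alone 1. It was 7 with the share set as a term, 7 without T65 replicate 1, 6 without T65 replicate 2, 7 without NB replicate 1 and 5 without NB replicate 3. OsMADS18 was among the 11: its T65 to NB difference was 0.06 ± 0.18 at day 0 and averaged -1.10 later (adjusted p of the change 0.0311). OsMADS18 had 39.6 ± 2.83 CPM in T65 and 84.5 ± 24.6 CPM in NB at day 4. Genes called at day 0 and on no later day numbered 230 (15.4%), and 0 of these were among the 11, so those 230 were not shown to differ between day 0 and later days.

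Each of the day 0 list calls can be set beside its later values. Hd6 was higher in T65 by 2.63, 2.65 and 2.51 on the log2 scale at days 4, 8 and 12, each called. Hd1 was lower in T65 by -2.31 and -2.13 at days 4 and 8, and stood at -0.22 at day 12, where it did not pass (adjusted p = 0.67). PRR73 was called higher in T65 on each later day (0.25, 0.36 and 0.53), and OsYAB4 lower (-0.74, -0.44 and -0.47). PRR59 was called lower at days 4 and 8 (-0.73 and -0.32) and not at day 12 (-0.13, adjusted p = 0.31). OsYAB3 was called lower at days 4 and 12 (-0.35 and -0.70) and not at day 8 (-0.37, adjusted p = 0.0543). PHYA was not called at day 4 (-0.08, adjusted p = 0.64) and was called higher in T65 at days 8 and 12 (0.43 and 1.19). OsMADS2 was not called at days 4 and 8 (-0.05 and 0.26, adjusted p = 0.831 and 0.355) and was called higher in T65 at day 12 (0.71). SLR1 was called on no later day, with values of -0.27, -0.16 and -0.37. OsSPL12 was called lower in T65 at day 4 (-0.28, adjusted p = 0.0227) and higher at day 12 (0.32, adjusted p = 0.0129). HSP101 was called higher in T65 at day 12 (3.14) and missed at days 4 and 8 (0.70 and 0.92).

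**Figure D4:**
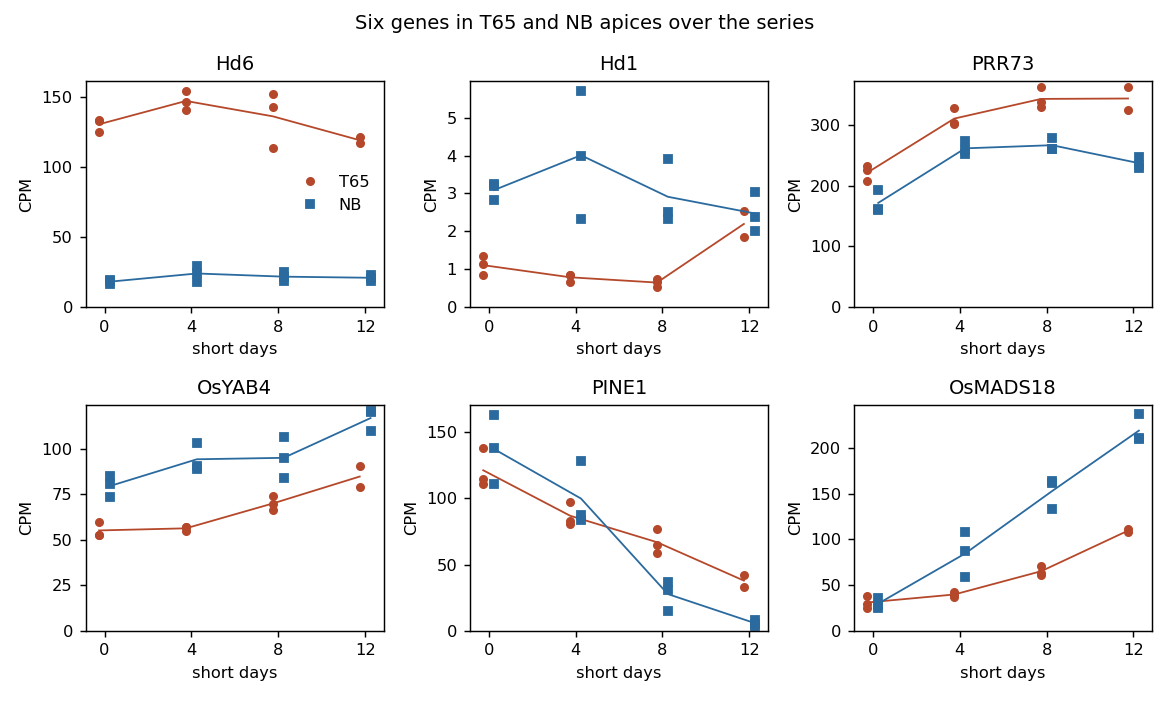
CPM of 6 genes in single libraries of T65 (circles) and NB (squares) at 0, 4, 8 and 12 short days, with lines through the group means. Hd6, PRR73 and OsYAB4 keep T65 and NB apart on every day, Hd1 on days 0, 4 and 8, while PINE1 and OsMADS18 overlap at day 0.

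The largest differences were of genes with counts in 1 cultivar and none or nearly none in the other. The 12 highest and 12 lowest differences among genes with at least 5 CPM in the higher group were all called in the same direction on all 4 days, and 16 of the 24 had 0 counts in the lower group. LOC_Os03g12280 had 154.3, 161.6 and 170.7 CPM in T65 and 0 counts in NB, which makes it at least 3686.6-fold higher in T65, from the counts summed over each group, its scaled total and a floor of 3 counts over the group at 0. LOC_Os10g10880 had 231.3, 243.5 and 197.2 CPM in T65 and 1 count in all of NB, 15270.8 times the NB level, and the 95% counting interval of that ratio runs between 2740.3 and 603210.4. In the other direction, LOC_Os11g09850 had 0 counts in T65 and 91.9, 85.5 and 96.3 CPM in NB, at least 1729.4-fold lower in T65. LOC_Os06g16050 had 0 counts in T65 and 57.4, 52.1 and 88.8 CPM in NB, at least 1246.1-fold lower. The sources used here pair these 4 loci with no name. Genes with 0 counts in T65 and at least 5 CPM in each NB library numbered 27, and genes with 0 counts in NB and at least 5 CPM in each T65 library numbered 8. In each set, 4 genes had 0 counts in every library of that cultivar on all days. Whether a gene with 0 counts in T65 is missing from its genome, not transcribed or not aligned cannot be told apart from counts. Genes with 0 counts in NB are loci of an annotation made on Nipponbare. For them, no transcription and no unique alignment cannot be told apart.

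Genes that differed were unevenly spread along the chromosomes. On chromosome 11, 173 of 1279 tested genes differed (13.5%), of which 66 were higher and 107 lower in T65, while the other chromosomes ranged from 4.09% on chromosome 9 to 8.34% on chromosome 7. Differences of at least 2-fold made up 9.77% of tested genes on chromosome 11 and 1.57 to 4.54% elsewhere. Tested genes were cut in order of locus number into 221 runs of 100, the last of a chromosome holding up to 196, and the share that differed ran from 0 to 28.5% with a median of 5%. The run at the end of chromosome 11, from LOC_Os11g41410 to LOC_Os11g48100, had 51 of 179 genes called, 11 higher and 40 lower in T65. In 3 other runs the share was 20% or more: LOC_Os02g38700 to LOC_Os02g40460 (25%), LOC_Os01g04550 to LOC_Os01g06560 (22%) and LOC_Os07g34950 to LOC_Os07g37350 (20%). Those 4 runs hold 2.1% of tested genes and 7.91% of the calls. The end run of chromosome 11 also had 34.6, 26.8 and 43.6% of its genes called at days 4, 8 and 12. Of all tested genes, 15.4, 4.19 and 30.7% were called on those days. At day 12 other runs reached similar shares, such as LOC_Os01g02720 to LOC_Os01g04540 (45%). Runs were described only, with no test of their share, and they were chosen after their values were seen.

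**Figure D5:**
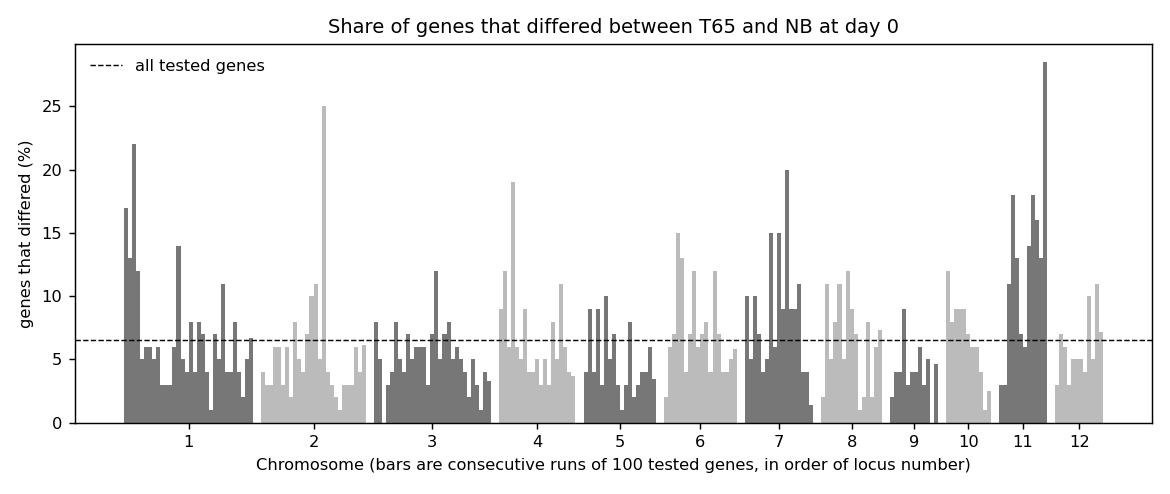
Share of tested genes that differed between T65 and NB at day 0, in consecutive runs of 100 tested genes along the 12 chromosomes, with the share over all genes (6.53%) as a dashed line. The last run of a chromosome can hold more than 100 genes, and the highest bar, 28.5%, is the end of chromosome 11.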

How the data were processed

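RNA was measured by sequencing in dissected rice shoot apices. The authors deposited raw counts per gene, 1 column for each of 23 libraries, with no normalization. The submitters' processing notes name TopHat2 and Bowtie2, HTSeq, edgeR 3.6.4 and R 3.1.0. Roles of these tools, genome build, annotation release and strand setting: not given in the sources used here. Reads of a gene and of one that overlaps it or lies antisense to it cannot be told apart. Each file's 55986 loci were used and its 5 summary rows were left out of library sizes. Reads in no gene and ambiguous reads are also given relative to the counts in genes. In the day 0 libraries, reads in no gene came to 4.9 to 4.99% in T65 and 5.11 to 5.18% in NB. Ambiguous reads came to 2.19 to 2.38% in T65 and 2.06 to 2.1% in NB. Reads aligned to several places are not counted in genes, which can lower the counts of near-identical copies.

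The counts were tested with edgeR 4.0.16 (glmQLFit, glmQLFTest) in R 4.3.3, after TMM scaling and filterByExpr. All 8 groups of cultivar and day shared 1 model with 15 residual degrees of freedom and a biological coefficient of variation of 12.7%. P-values were adjusted by Benjamini-Hochberg over the 22839 tested genes in each contrast, at 0.05, and 5072 genes had an unadjusted p under 0.05 at day 0. DESeq2 1.42.0 was an alternative, and the fit was tested on simulated data. Ratios against 1 to 3 counts have a 95% interval that covers counting error only. Replicates of a group were not duplicates (chi-square per gene 7.24 to 30.4).

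Loci were given symbols from recalled nomenclature. Of 208 symbols, 153 were checked against symbols and chromosomes in a RefSeq gene table (assembly ASM3414082v1), 51 had no match there and were kept unchecked, and 4 were dropped. Those kept unchecked include Hd6, PRR59, PINE1, OsFD1, MOC1, PIN1d, VIL2, Ehd1 and Ghd7. The members and lists were chosen with earlier results of these data known. Named genes were those of the lists that passed (at most 4 per list), list genes discussed for their role, the 12 highest and 12 lowest differences with non-overlapping groups and at least 5 CPM, and the 4 genes of smallest p in each direction in the contrast of day 0 with later days. Loci without a name were limited to 2 per direction, and 1 listed gene is not reported here. Alternatives were other scalings and filters, fewer libraries, a replicate block and the set of libraries with a low share of multiply aligned reads.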

Additional observations from a re-analysis of the deposited data

Results flagged for a closer look

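The test of the day 0 difference against the mean of the later differences singled out 5 named genes, as a difference that changed between day 0 and the later days. For LOC_Os02g50330, the day 0 difference minus the later mean was 0.97 on the log2 scale: it was 1.43 ± 0.08 at day 0 (109.4 ± 8.06 CPM in T65, 40.7 ± 2.64 CPM in NB) and 0.46 later. For LOC_Os06g13720 it was 1.07, with 15.1 ± 1.26 CPM in T65 and 13 ± 2.2 CPM in NB at day 0. For LOC_Os03g36830 it was -1.3, with 9.51 ± 0.475 CPM in T65 and 8.37 ± 0.431 CPM in NB at day 0. For LOC_Os03g03100 it was -1.1, with 10.2 ± 0.345 CPM in T65 and 12.9 ± 0.958 CPM in NB at day 0. For OsMADS18 it was 1.17, with 30.9 ± 6.78 CPM in T65 and 29.7 ± 5.93 CPM in NB at day 0. At day 12 OsMADS18 had 109.4 ± 2.13 CPM in T65 (SD, n = 2) and 218.8 ± 15.3 CPM in NB (SD, n = 3). Groups of 3 libraries were not checked for single outlying samples.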

How the results depend on the processing

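The day 0 count of 1492 genes was 2031 by DESeq2, 1493 with median-of-ratios scaling and 1411 on unscaled totals. It was 2901 without a filter on low counts, 3032 in a fit of the 6 day 0 libraries alone, 896 with the share set as a term and 409 in higher-share libraries only. Leaving out 1 library gave 861 to 1050. The 721 differences of 2-fold became 356 in higher-share libraries and 549 to 647 on leaving out 1 library. The 11 genes of the day 0 against later test became 60 by DESeq2, 348 without a filter, 7 with the share set as a term, 1 in higher-share libraries and 5 to 13 on leaving out 1 library. The cause of these shifts was not tested. The fit of 6 libraries cannot give the day 0 against later test.

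The replicate numbers do not pair T65 with NB libraries by the design: same-numbered T65 and NB libraries had deviations correlated at 0.093, 0.073 and 0.096, although all 6 correlated best with their own number, a hint from the data and not the design. With a replicate block the counts were 1281, 656 and 8, and the block removed the calls of OsYAB3 and OsSPL12. Over 19 named genes, 220 of 266 alternative values kept their direction and side of the threshold, 46 lost the call and 0 reversed. Every lost call was of a listed gene. LOC_Os06g13720, LOC_Os03g36830 and LOC_Os03g03100 are among the 19, were not called at day 0 and had no call to lose. Loci named for the largest differences, with 0 or nearly 0 counts in 1 cultivar, lost none. Counts shared with later days, whose alternatives were added after the data were seen, were 1428 at day 4 and 1625 at day 12 without a filter, and 359, 273 and 378 at days 4, 8 and 12 in higher-share libraries.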
